A study of Homo sapiens with 6 samples.

Results

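Cells mark their chromatin with enzymes that add or remove methyl and acetyl groups. DNA methyltransferases (DNMT) place methyl groups on cytosine and the TET dioxygenases oxidise them, Polycomb proteins and other lysine methyltransferases write repressive or activating marks on histone tails, acetyltransferases loosen chromatin, and the histone deacetylases (HDAC), sirtuins (SIRT) and lysine demethylases (KDM) take marks away. In glioblastoma, an astrocytic brain tumour, several of these enzymes are known for mutation or altered expression.

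The genes described here are the protein-coding HDAC, SIRT, KDM, KMT2, TET and DNMT genes, without KDM3A, together with 16 named genes: EZH1, EZH2, SUZ12, EED, BMI1, CBX2, EP300, CREBBP, SETD1A, SETD1B, SETD2, SETDB1, EHMT1, EHMT2, SUV39H1 and SUV39H2. They number 65 of the 58051 genes in the count files, of which 19629 are protein-coding. They were chosen by name, with earlier results of these data known. For brevity all are called enzymes below, although some, such as SUZ12 and EED, are subunits of an enzyme complex. The study supplied A172, an established human glioblastoma cell line, with a lentiviral plasmid for either RBFOX1, an RNA-binding protein, or GFP (green fluorescent protein) as control. Both groups are stable lines infected in the presence of polybrene with virus packaged in HEK293T cells. The plasmids were pLX317-GFP and pLX317-RBFOX1, and whether a line is a clone or a pool of infected cells is not given in the sources used here. Each group has 3 libraries, which the study describes as biological replicates, and neither is the time between infection and harvest given. Stranded libraries were made from total RNA after removal of rRNA.

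Each library held between 7433414 and 23249221 counts on genes. RBFOX1 itself had 4, 0 and 1 counts in GFP replicates 1, 2 and 3 and 10276, 16467 and 21451 in the RBFOX1 replicates, and the supplied gene was thus present as labelled. VIM, CD44 and NES were abundant in every library, while the astrocyte markers GFAP and S100B had at most 4 and 2 counts in a library, so an astrocytic identity is not visible in these defining markers. Of the other markers of the line, NES (log2 fold change of RBFOX1 over GFP cells 0.60) and SOX2 (2.53) rose, and VIM (-0.65), CD44 (-0.90) and OLIG2 (-0.50) fell, with edgeR adjusted p of at most 0.00398. Of 8 markers of other cell types, 5 were higher in RBFOX1 cells (PTPRC, PECAM1, VWF, SYP and KRT8). Their summed normalized count was 2554 to 2596 in GFP and 7988 to 8343 in RBFOX1 libraries, or 45.3 to 56.4 against 185 to 212 without KRT8, and CD68 and RBFOX3 had at most 4 counts in a library. The part of any of these markers, or of the cells they mark, in the enzyme results was not tested, and in bulk RNA a change in the share of cells and a change of RNA per cell cannot be told apart. GFP replicate 1, the deepest library, stood apart: the chi-square of its counts, divided by the degrees of freedom, was 8.9 and 9.07 against GFP replicates 2 and 3, compared with 1.66 between these replicates and at most 3.01 among the RBFOX1 libraries.

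Of the 65 genes, 62 had enough counts to be tested with edgeR's quasi-likelihood test, and each is given below by its log2 fold change of RBFOX1 over GFP cells, its standard error (SE) and its p adjusted over all 20536 genes tested. DNMT3L, a cofactor of the de novo DNA methyltransferases, and the demethylase genes KDM4E and KDM4F had 0 counts in every library, which allows up to 1.82 normalized counts in the deepest and 5.44 in the shallowest. At an adjusted p under 0.05, 27 enzymes (43.5%) rose and 12 (19.4%) fell in RBFOX1 cells, while 23 did not pass. The same threshold called 23.7% of all genes tested higher and 22.9% lower. Low genes are rarely called, so protein-coding genes whose mean reached 50 normalized counts are a closer comparison: 31.5% of these 11069 genes were higher and 33.6% lower, against 26 (44.1%) and 12 (20.3%) of the 59 enzymes with such a mean. The median log2 fold change was 0.11 over the enzymes tested and -0.01 over those protein-coding genes. Counts of risers and fallers in the classes and partner lists below are to be read beside the shares of 31.5% and 33.6%. Groups without overlap were common too. Every RBFOX1 library lay above every GFP library in 3733 of the 11069 genes, and below in 3994. For the 59 enzymes the numbers were 28 and 13. Without GFP replicate 1, 24 enzymes rose and 14 fell, and the share of all genes called without it was not taken.

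Most shifts were small. The log2 fold changes of the enzymes ran from -0.77 to 1.31, and only 13 of the risers and 2 of the fallers moved by at least 0.5. Of the 59 better-measured enzymes, 12 rose and 2 fell by that much, where 15.2% of the protein-coding genes rose and 13.9% fell by at least 0.5. With a test against a minimum change of 1.2-fold in place of any change, 14 enzymes rose and 3 fell. The share of all genes called by that test was not taken, so these numbers have no background beside them.

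**Figure D1:**
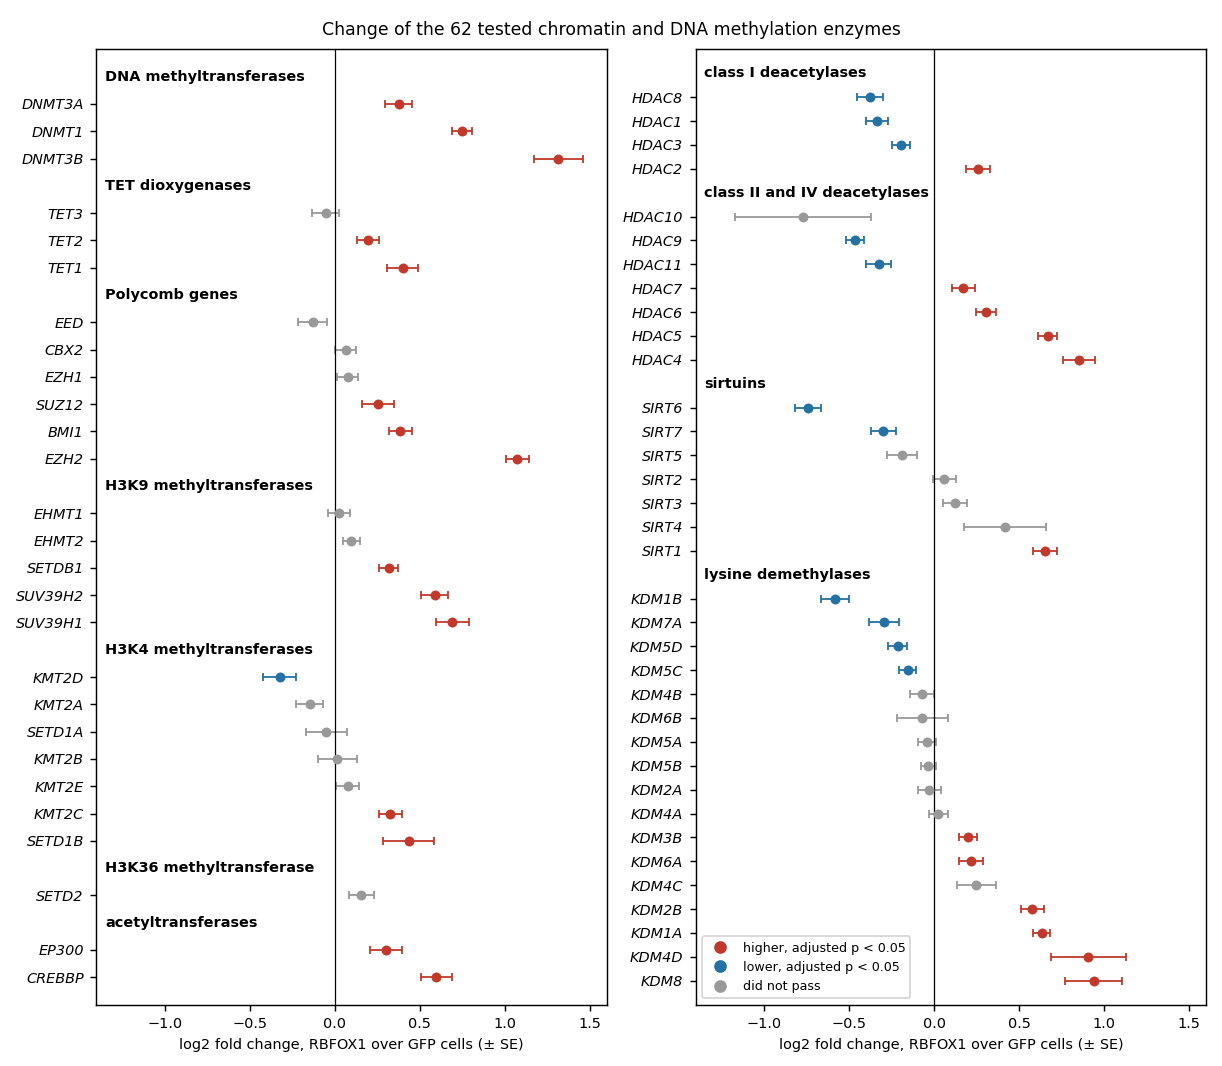
Log2 fold change of each of the 62 tested enzymes in RBFOX1 over GFP cells, with bars of 1 SE, grouped by enzyme class and coloured by the edgeR call. The 3 DNA methyltransferases lie right of 0, 3 of the 4 class I deacetylases lie left of it, and DNMT3B (1.31) and EZH2 (1.07) rose furthest.

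The DNA methyltransferases rose together, and the rise was largest for DNMT3B. DNMT1 (ENSG00000130816, chr19:10133342-10231286 of GRCh38, minus strand), the maintenance enzyme that copies methylation to new DNA strands, had 1198, 1345 and 1295 normalized counts in GFP replicates 1 to 3 and 2264, 2118 and 2056 in the RBFOX1 replicates. Every RBFOX1 library lay above every GFP library, a 1.68-fold rise (log2 fold change 0.75, SE 0.06, edgeR adjusted p = 1.15e-09). DNMT3B (chr20:32762385-32809359, plus strand), a de novo methyltransferase, had 55.9, 56.1 and 41.1 against 140, 132 and 118 normalized counts. The groups were far apart for a gene this low, and it rose 2.48-fold (log2 fold change 1.31, SE 0.15, edgeR adjusted p = 2.38e-07). The other de novo enzyme, DNMT3A (chr2:25227855-25342590, minus strand), had 276, 308 and 284 against 386, 365 and 373, and rose 1.3-fold (log2 fold change 0.38, SE 0.08, edgeR adjusted p = 0.000498). On the RPKM scale, which divides counts by transcript length and library size, DNMT1 remained the most abundant of the 3, at 17.5 in GFP and 29.3 in RBFOX1 cells, with DNMT3A at 2.22 and 2.87 and DNMT3B at 0.847 and 2.16. DNMT1 overlaps S1PR2 on the same strand, which had a mean of 105 normalized counts, so reads shared by both genes would not have been counted for either.

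Of the TET dioxygenases, TET1 and TET2 rose and TET3 did not pass. TET1, at 171.8, 180 and 165 normalized counts in GFP and 227, 218 and 236 in RBFOX1 libraries, was separated between the groups (log2 fold change 0.40, SE 0.09, edgeR adjusted p = 0.00124). TET2 had 631, 673 and 611 against 716, 766 and 709, also without overlap (log2 fold change 0.20, SE 0.07, edgeR adjusted p = 0.0173), but its call was lost without GFP replicate 3 (adjusted p = 0.0692) or RBFOX1 replicate 2 (0.0869). TET3, the fellow family member, had 487, 557 and 546 against 559, 494 and 482, values that overlapped (log2 fold change -0.05, SE 0.08, edgeR adjusted p = 0.61). The TET1 gene overlaps the pseudogene COX20P1 on the same strand, which had a mean of 88 normalized counts and a log2 fold change of -0.44.

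Proteins that work with DNA methylation moved in both directions, 7 of 12 tested up and 4 down. IDH1, which makes the 2-oxoglutarate that TET and Jumonji-type demethylases need, had 8740, 8370 and 8223 normalized counts in GFP against 2008, 2066 and 2071 in RBFOX1 libraries. This fall, to 0.243 of the GFP level, had a log2 fold change of -2.04 (SE 0.05, edgeR adjusted p = 2.84e-17), beyond that of any enzyme of the set. Its mitochondrial relative IDH2, named here after its values were seen, rose (log2 fold change 0.49, edgeR adjusted p = 1.7e-05). APOBEC3B, a cytidine deaminase, rose with a log2 fold change of 1.18 (edgeR adjusted p = 6.84e-06). UHRF1, which brings DNMT1 to newly replicated DNA and was likewise named after its values were seen, rose by 1.11 on the log2 scale (edgeR adjusted p = 2.57e-11).

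Among the Polycomb genes, the change centred on EZH2 (chr7:148807257-148884321, minus strand), the methyltransferase of Polycomb repressive complex 2 (PRC2), which writes the repressive mark on lysine 27 of histone H3. EZH2 had 375, 385 and 400 normalized counts in GFP and 762, 857 and 807 in RBFOX1 libraries. The lowest RBFOX1 library was far above the highest GFP library, a 2.1-fold rise (log2 fold change 1.07, SE 0.07, edgeR adjusted p = 7.66e-11). Its alternative EZH1, with 589, 596 and 593 against 655, 625 and 600, lay higher in all 3 RBFOX1 libraries but did not pass (log2 fold change 0.07, SE 0.06, edgeR adjusted p = 0.372). In RPKM both were close in GFP cells, 10.5 for EZH2 and 9.22 for EZH1, and stood at 22.0 and 9.75 in RBFOX1 cells.

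The other core PRC2 subunits, SUZ12 and EED, had log2 fold changes of 0.26 and -0.13. SUZ12 had 988, 1372 and 1396 normalized counts in GFP and 1371, 1544 and 1508 in RBFOX1 libraries, with overlap. It passed the test (SE 0.09, edgeR adjusted p = 0.031), but without GFP replicate 1, where it was low, the log2 fold change was 0.11 (adjusted p = 0.105). The call was also lost without RBFOX1 replicate 2 (0.121) or 3 (0.101) and in DESeq2 (0.268). EED, the subunit that reads the mark, did not pass (adjusted p = 0.238). Of the 8 PRC2 partners tested, 4 rose and 1 fell. PHF19, an accessory subunit, rose by 0.77 on the log2 scale (edgeR adjusted p = 3.19e-08), while the related PHF1 fell by 0.62 (2.39e-07). In PRC1, the complex that ubiquitinates histone H2A, BMI1 rose (log2 fold change 0.39, edgeR adjusted p = 6.14e-05) and CBX2 did not pass (0.06, 0.436). Its 17 partners held 3 that rose and 3 that fell, among them RYBP with a log2 fold change of 0.54 (3.84e-05) and PCGF5 with -0.48 (2.17e-06).

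**Figure D2:**
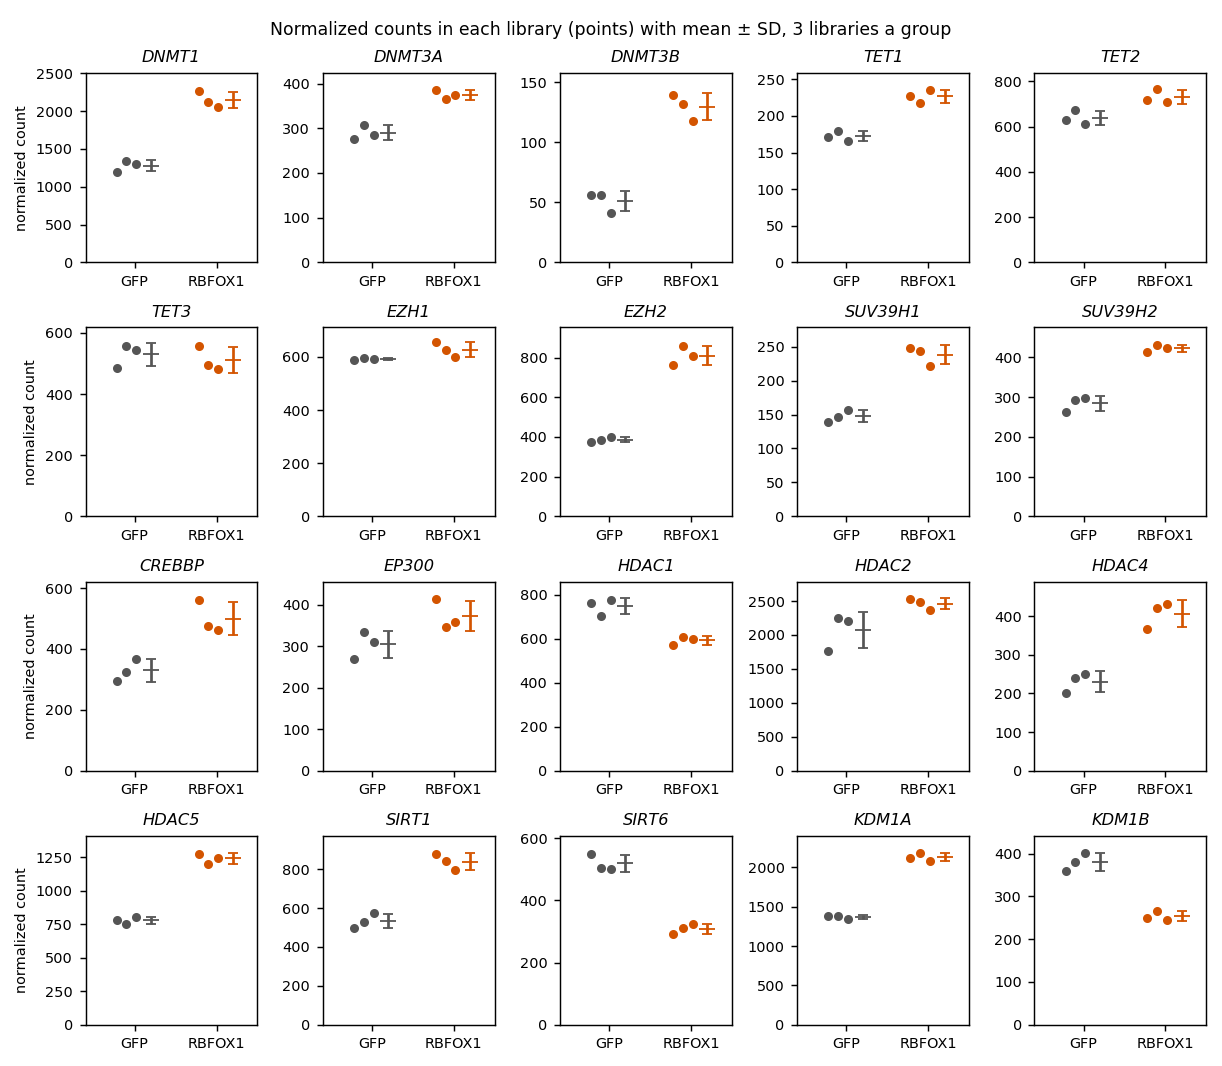
Normalized count (vertical axis, from 0) of 20 of the enzymes in each of the 3 GFP and 3 RBFOX1 libraries, with the mean and SD beside the points. The groups are separated for EZH2 (375 to 400 against 762 to 857) and SIRT6 (501 to 550 against 292 to 323), and overlap for TET3.

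Methyltransferases of histone H3 lysine 9 also rose where they write the trimethyl mark of heterochromatin. SUV39H1 (chrX:48695554-48709016, plus strand) had 139, 146 and 157 normalized counts in GFP and 248, 243 and 222 in RBFOX1 libraries, a 1.61-fold rise (log2 fold change 0.69, SE 0.10, edgeR adjusted p = 6.05e-06). SUV39H2 (chr10:14878820-14904315, plus strand) had 263, 292 and 297 against 414, 432 and 423, a 1.5-fold rise (0.59, SE 0.08, 3.01e-06). Their count ratio changed little, 0.5 to 0.528 in GFP and 0.525 to 0.601 in RBFOX1 libraries. SETDB1 rose less (0.32, SE 0.06, 8.16e-05). EHMT1 and EHMT2, partners in writing the lower methylation states of this residue, did not pass, at 0.02 (0.793) and 0.10 (0.135).

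The KMT2 and SETD1 genes, grouped here under the activating lysine 4 mark, did not share a direction. KMT2C, which marks enhancers, rose (log2 fold change 0.33, SE 0.07, edgeR adjusted p = 0.000548), and its close relative KMT2D fell (-0.32, SE 0.10, 0.00991). The count ratio of KMT2C to KMT2D was 2.53, 2.81 and 2.47 in GFP and 4.1, 3.83 and 4.32 in RBFOX1 libraries, without overlap. KMT2D was not called in DESeq2 (adjusted p = 0.0523) or without GFP replicate 3 (0.0537) or RBFOX1 replicate 3 (0.106). SETD1B passed (0.43, SE 0.15, 0.021) but lost its call in DESeq2 (log2 fold change 0.42, adjusted p = 0.121) and without RBFOX1 replicate 1 (0.40, 0.0598). Without GFP replicate 1 its log2 fold change itself was lower, at 0.26 (0.168). KMT2A, KMT2B, KMT2E and SETD1A did not pass, and neither did SETD2, the lysine 36 methyltransferase of transcribed gene bodies (0.16, SE 0.07, 0.0814). Among 13 partner subunits listed for the lysine 4 complexes, 5 rose and 1 fell, with WDR82 at 0.51 (6.25e-08) and ASH2L at 0.37 (0.0103). ASH2L was low in GFP replicate 1, at 403 normalized counts against 622 and 588 in the other GFP libraries, and without it the log2 fold change was 0.17 (0.0316).

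Of 19 other histone methyltransferases, 11 rose and 1 fell. The largest rises among them were those of SETMAR (log2 fold change 0.83, edgeR adjusted p = 1.09e-06) and SMYD3 (0.59, 6.99e-07).

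Both coactivator acetyltransferases rose. CREBBP (chr16:3725054-3880713, minus strand) had 296, 325 and 369 normalized counts in GFP and 562, 474 and 464 in RBFOX1 libraries, a 1.51-fold rise (log2 fold change 0.60, SE 0.09, edgeR adjusted p = 1.65e-05). EP300 had 269, 335 and 310 against 415, 348 and 360. Its groups were separated by a narrow gap, and its call (0.30, SE 0.09, 0.012) was lost without GFP replicate 1 (0.074) or RBFOX1 replicate 1 (0.0576). Of 9 other acetyltransferases, 5 rose and 1 fell, with KAT2B at 0.49 (5.55e-06) and KAT6B at 0.43 (0.0032). KAT6B was low in GFP replicate 1, and without that library its log2 fold change was 0.24 (0.0104).

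The class I deacetylases, of which HDAC1, HDAC2 and HDAC3 are catalytic subunits of corepressor complexes, went the other way, except for HDAC2. HDAC1 had 762, 705 and 776 normalized counts in GFP and 571, 608 and 599 in RBFOX1 libraries, all lower (log2 fold change -0.33, SE 0.06, edgeR adjusted p = 0.000244). HDAC8, a deacetylase of cohesin, fell by 0.38 (0.000315) and HDAC3, the NCOR-bound enzyme, by 0.19 (0.00643). HDAC2 had 1764, 2243 and 2204 in GFP against 2525, 2491 and 2375 in RBFOX1 libraries and rose (0.26, SE 0.07, 0.00532). With GFP replicate 1, the lowest of these, left out, its log2 fold change was 0.15 (0.00771). HDAC1 and HDAC2 are close paralogs found in the same complexes, and the count ratio of HDAC2 to HDAC1 was 2.31, 3.18 and 2.84 in GFP and 4.42, 4.09 and 3.96 in RBFOX1 libraries.

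The class II deacetylases, several of which shuttle between cytoplasm and nucleus, diverged. HDAC4 (chr2:239048168-239401654, minus strand) had 201, 239 and 252 normalized counts in GFP and 366, 422 and 432 in RBFOX1 libraries, a 1.8-fold rise (log2 fold change 0.85, SE 0.09, edgeR adjusted p = 2.65e-07). HDAC5 (chr17:44076746-44123702, minus strand) had 782, 751 and 804 against 1275, 1198 and 1245, a 1.59-fold rise (0.67, SE 0.06, 5.93e-09). HDAC9, of the same subclass, fell instead, from 1714, 1725 and 1584 to 1221, 1196 and 1227 (-0.46, SE 0.05, 4.66e-07). HDAC6, the tubulin deacetylase, rose (0.31, 0.000181). HDAC7 passed narrowly with overlapping groups (0.17, 0.0374) and lost its call under 7 of the 13 alternatives run for single enzymes, with adjusted p up to 0.133. HDAC11, the class IV enzyme, fell (-0.33, 0.00126). HDAC10 had only 16, 10 and 11 counts in GFP and 2, 6 and 8 in RBFOX1 libraries, and its log2 fold change of -0.77 had an SE of 0.40 (adjusted p = 0.126). It overlaps the more abundant MAPK12 on the same strand.

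Of 22 subunits of corepressor complexes that carry deacetylases, 8 rose and 3 fell. RCOR1, the CoREST scaffold that holds KDM1A together with HDAC1 and HDAC2, had 258, 259 and 279 normalized counts in GFP and 620, 633 and 594 in RBFOX1 libraries. It rose 2.32-fold (log2 fold change 1.21, SE 0.07, edgeR adjusted p = 2.9e-11). TBL1X, a subunit of the NCOR complex, fell from 302, 394 and 368 to 210, 188 and 184 (-0.86, SE 0.10, 8.1e-07).

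The sirtuins, deacetylases that consume NAD, held a pair of opposite changes. SIRT1 (chr10:67884656-67918390, plus strand) had 500, 527 and 574 normalized counts in GFP and 880, 839 and 793 in RBFOX1 libraries, a 1.57-fold rise (log2 fold change 0.65, SE 0.07, edgeR adjusted p = 1.45e-07). SIRT6 (chr19:4174109-4182566, minus strand), a chromatin-bound enzyme of telomeres and DNA repair, had 550, 504 and 501 against 292, 312 and 323. It fell to 0.597 of the GFP level, the lowest fold among the enzymes called (log2 fold change -0.74, SE 0.08, 8.01e-08). In RPKM, SIRT6 went from 23.4 to 13.9 and SIRT1 from 9.36 to 14.7. SIRT7, the nucleolar sirtuin, fell (-0.30, 0.00172), but it overlaps MAFG on the same strand, which had more counts and a log2 fold change of -0.66. SIRT2 and the mitochondrial SIRT3, SIRT4 and SIRT5 did not pass, with log2 fold changes from -0.19 to 0.42.

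Of the 17 lysine demethylases tested, 6 rose, 4 fell and 7 did not pass. Among protein-coding genes with a mean of at least 50, 31.5% were higher and 33.6% lower. KDM1A (LSD1; chr1:23019443-23083689, plus strand), the flavin-dependent lysine 4 demethylase of CoREST, had 1384, 1385 and 1347 normalized counts in GFP and 2115, 2184 and 2086 in RBFOX1 libraries. It rose 1.55-fold (log2 fold change 0.63, SE 0.05, edgeR adjusted p = 1.72e-09). Its only relative, KDM1B (LSD2; chr6:18155329-18223854, plus strand), had 361, 381 and 401 against 248, 266 and 245 and fell to 0.668 of the GFP level (-0.58, SE 0.08, 5.78e-06). The count ratio of KDM1A to KDM1B was thereby 3.84, 3.64 and 3.36 in GFP and 8.51, 8.2 and 8.52 in RBFOX1 libraries.

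Among the Jumonji-type demethylases, KDM2B (chr12:121429096-121581023, minus strand), which binds CpG islands and recruits PRC1, had 435, 438 and 473 normalized counts in GFP and 666, 665 and 673 in RBFOX1 libraries (log2 fold change 0.58, SE 0.07, edgeR adjusted p = 4.1e-07). KDM2A, which binds the same kind of DNA, did not pass (-0.03, 0.776). KDM8 (chr16:27203508-27221768, plus strand) had 38.9, 46.7 and 33.7 against 79.8, 79.9 and 69.4 (0.94, SE 0.17, 0.0001). KDM4D (chr11:94973709-94999519, plus strand), a lysine 9 demethylase, had 24.3, 18.7 and 16.9 against 38.1, 41.1 and 37.4 (0.91, SE 0.22, 0.00202). Both groups were low but did not overlap for KDM8 or KDM4D, whereas KDM4A, KDM4B and KDM4C did not pass. KDM3B rose (0.20, 0.00455), as did KDM6A, a lysine 27 demethylase (0.21, 0.0157), while KDM6B did not pass. KDM7A (-0.29, 0.00921), KDM5C (-0.16, 0.0137) and KDM5D (-0.21, 0.00353) fell, and the abundant KDM5A and KDM5B, lysine 4 demethylases, stayed at -0.04 (0.56) and -0.03 (0.604). KDM5C, KDM6A and KDM7A each lost their calls under some alternatives, with adjusted p up to 0.0797, 0.0724 and 0.0836.

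Because a library's depth cancels in the ratio of a pair of genes, the count ratio was taken within each library for 13 pairs of related enzymes, picked after the values of the enzymes had been seen. No p is given, since 3 against 3 libraries cannot go below 0.1 in a two-sided exact permutation test. The largest shift was that of KDM1A over KDM1B, whose ratio rose 2.33-fold. EZH2 over EZH1 went from 0.636, 0.647 and 0.675 in GFP to 1.16, 1.37 and 1.35 in RBFOX1 libraries. The counts are not corrected for transcript length. In RPKM, EZH2 lay above EZH1 in GFP (10.5 against 9.22) and in RBFOX1 cells (22 against 9.75). DNMT3B over DNMT3A went from 0.202, 0.182 and 0.144 to 0.362, 0.362 and 0.315. KDM2B over KDM2A shifted 1.52-fold and CREBBP over EP300 1.23-fold. The groups overlapped for KMT2A over KMT2B, SUV39H1 over SUV39H2, EHMT1 over EHMT2, KDM6A over KDM6B and KDM5A over KDM5B.

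**Figure D3:**
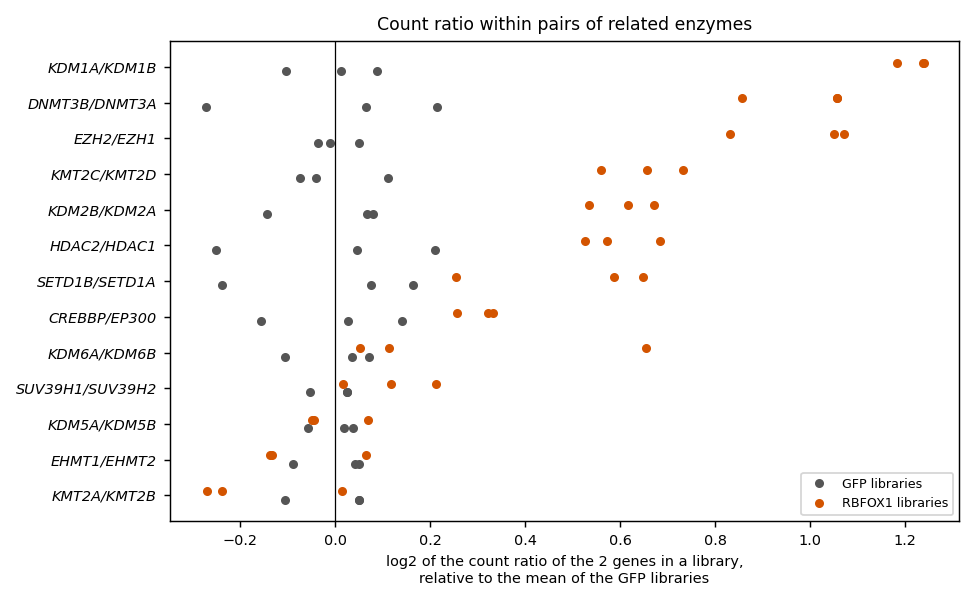
Count ratio within 13 pairs of related enzymes, as log2 centred on the GFP libraries' mean, with a point for each library. The RBFOX1 libraries lie apart from the GFP libraries for KDM1A over KDM1B (log2 shift 1.22), DNMT3B over DNMT3A (0.99) and EZH2 over EZH1 (0.98), and among them for KDM5A over KDM5B (-0.01).

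Several of these enzymes, among them DNMT1, EZH2 and the partner UHRF1, are known to be more abundant in dividing cells, so genes of the cell cycle were measured beside them. Of 12 genes of S phase, 11 rose and 1, PCNA, fell (log2 fold change -0.18, edgeR adjusted p = 0.0061), with a median log2 fold change of 0.89. All 12 genes of G2 and mitosis rose, with a median of 1.39. RRM2, the ribonucleotide reductase subunit of S phase, had 468, 527 and 558 normalized counts in GFP and 2284, 2713 and 2153 in RBFOX1 libraries (log2 fold change 2.21, 1.73e-14). MKI67, the Ki-67 antigen, had 368, 590 and 560 against 2129, 2157 and 1889 (2.06, 6.31e-12). GINS2, of the replicative helicase, rose by 1.28 (6.38e-11) and AURKB, the mitotic kinase, by 1.77 (6.16e-13). The part of cell division in the enzyme changes was not tested. Over the 100 partner genes tested, 43 rose and 14 fell, with a median of 0.14.

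**Figure D4:**
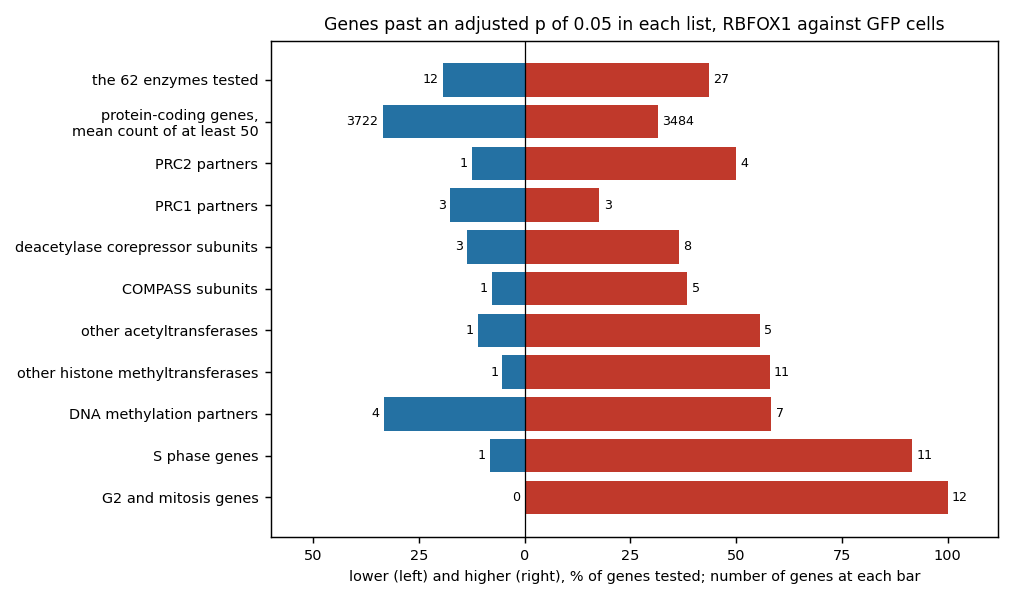
Share of genes past an adjusted p of 0.05 in each list, in % of genes tested, lower to the left and higher to the right, with the number of genes at each bar. The 62 enzymes (27 higher, 12 lower) lie between the protein-coding genes and the cell cycle lists, in which 11 of 12 and 12 of 12 genes were higher.

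RBFOX proteins bind the word TGCATG in RNA (UGCAUG), so this word was searched on the transcript strand of the 3′ UTR of each enzyme's canonical transcript. It was found in 14 of the 62 tested enzymes (22.6%), against 36.5% of 14049 protein-coding genes tested, at 0.202 and 0.322 words per kb of 3′ UTR. The median 3′ UTR was 1450 bases long in the enzymes and 1298 in all genes. Of the 14 enzymes with the word, 8 rose (KDM8, HDAC4, KDM4D, SIRT1, CREBBP, HDAC2, TET2 and HDAC7), 1 fell (KDM5D) and KDM5A, KDM5B, KMT2A, SIRT5 and TET3 did not pass. Of the 48 without it, 19 rose and 11 fell, and their median log2 fold change was 0.09, against 0.19 with it. Thus 57.1% of the enzymes with the word rose and 7.14% fell, against 39.6% and 22.9% of those without it. Over all protein-coding genes tested, 35.9% with the word were higher and 26.9% lower, against 27.1% and 30% without it, and the medians were 0.06 with and -0.01 without the word. The word is absent from these 3′ UTRs of DNMT1, DNMT3A, DNMT3B, EZH2, SUV39H1, SUV39H2, KDM1A and SIRT6. Their lengths were 263 bases in EZH2, 321 in DNMT1, 325 in KDM1A and 508 in SIRT6. The others ranged from 1446 bases in SUV39H1 to 6405 in DNMT3A. The shares with and without the word were not corrected for 3′ UTR length or expression level. Those over all protein-coding genes include low genes, which are rarely called.

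The words of the 5 enzymes that rose by at least 0.5 on the log2 scale and hold any are given in GRCh38 sequence, 5′ to 3′ on the strand of the gene, followed by those of KDM5A, which has the most words and did not pass. Capitals mark TGCATG, and coordinates give the 6 bases of the word. A match is a description and not a measured binding site.
KDM8, chr16:27220941-27220946, plus strand: ccaggccaggggTGCATGgcagaggaaggt
KDM8, chr16:27220995-27221000, plus strand: agacagacagccTGCATGgggactctggca
KDM8, chr16:27221228-27221233, plus strand: agcccctgctgcTGCATGaaccttagccgc
HDAC4, chr2:239051001-239051006, minus strand: gcatgtcagcaaTGCATGgggcacacgtgg
HDAC4, chr2:239049424-239049429, minus strand: acacctggaggtTGCATGgactgtacgacc
KDM4D, chr11:94999051-94999056, plus strand: ggactctaggcaTGCATGaaagagcccccc
SIRT1, chr10:67918136-67918141, plus strand: tagttttccattTGCATGatgtttgtgtgc
CREBBP, chr16:3726714-3726719, minus strand: gtatttggactaTGCATGtgttttttcccc
KDM5A, chr12:285303-285308, minus strand: tggcttcctcttTGCATGgactctgtgggt
KDM5A, chr12:284580-284585, minus strand: gagccacagtgaTGCATGcttttcggggaa
KDM5A, chr12:282455-282460, minus strand: ttgatgtgtagaTGCATGacttcctcacta
KDM5A, chr12:282414-282419, minus strand: accagctttgccTGCATGattcaaatttgt
KDM5A, chr12:282373-282378, minus strand: attataaattatTGCATGtcataccttgaa

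By number of words, with 3 words KDM8 rose by 0.94 on the log2 scale and with 2 words HDAC4 rose by 0.85, with 2 words HDAC2 rose by 0.26, and TET3 with 4 words and KDM5A with 5 words had log2 fold changes of -0.05 and -0.04. DNMT3B and EZH2, which rose furthest, have none. A relation between the number of words and the change was not tested.

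**Figure D5:**
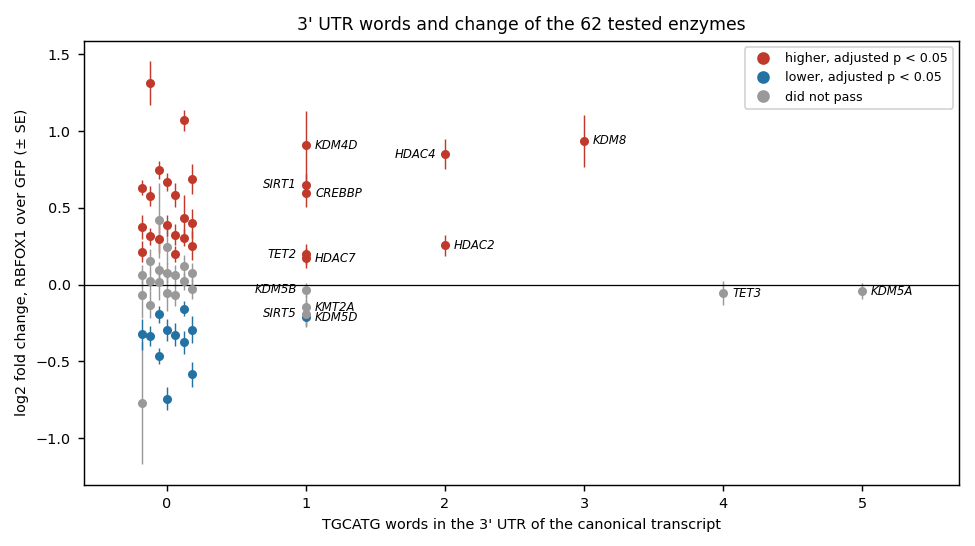
Log2 fold change of the 62 tested enzymes, with bars of 1 SE, by the number of TGCATG words in the 3′ UTR. Points at 0 words are spread sideways for clarity and run from -0.77 to 1.31, and TET3 (4 words) and KDM5A (5 words) lie near 0.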

How the data were processed

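The authors used HISAT2 for alignment to GRCh38 and HTSeq to count read pairs per gene, and deposited the raw count of each gene in each of the 6 libraries, without normalization. Genes received 52 to 61.9% of all read pairs. The lines for unassigned pairs were dropped before scaling and testing. A deposited table of the authors' own DESeq2 comparison (fold changes and p-values) was not used here.

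Counts were scaled with TMM and compared with the quasi-likelihood test of edgeR 4.0.16 in R 4.3.3, which was two-sided and had no term but condition, over 20536 genes with at least 10 summed counts. P-values were adjusted by the Benjamini-Hochberg method, with a threshold of 0.05, and the SE follows from the fold change and the F statistic. Normalized counts are per 13877712 counts, and RPKM values use the length of the canonical transcript. The common biological coefficient of variation was 0.0542. RBFOX1 replicate 1 was the shallowest library, and limits from 3 counts cover counting error only. The study's methods call the libraries biological replicates and do not say whether they came from separate infections or cultures. The p-values therefore cover the spread between these libraries only.

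Alternatives were DESeq2 1.42.0, limma-voom (limma 3.58.1), other scalings and filters, a replicate block, a minimum fold of 1.2 and the omission of each replicate. GENCODE release 44 (GRCh38) gave symbols, transcripts, coordinates and 3′ UTRs. It is later than the annotation used for counting, and 98.1% of identifiers matched. Same-numbered GFP and RBFOX1 libraries did not deviate together (r of -0.16, 0.04 and -0.05 over 12004 genes), so numbers were not taken as pairs. The procedure was also run on simulated counts with known changes, and the outcome is not given here. None of the simulated libraries was made to stand apart as GFP replicate 1 does.

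Values in every library were given for enzymes past the threshold with a log2 change of at least 0.5 and for DNMT1, DNMT3A, DNMT3B, TET1, TET2, TET3, EZH1, EZH2, HDAC1, HDAC2, SIRT1, EP300 and CREBBP. From each list of partner or cell cycle genes, the 2 called genes that changed most, given a mean of at least 50 and no overlap between groups, were named. UHRF1, IDH2 and PCNA were named outside this rule, after their values were seen. The members and lists were chosen with earlier results of these data known. HDAC9 and SUZ12 were given in every library after their values were seen.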

Additional observations from a re-analysis of the deposited data

How the results depend on the processing

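Of the 39 enzymes called, 21 that rose and 9 that fell kept direction and call under all 13 alternatives run for single enzymes. The others, EP300, HDAC7, KDM5C, KDM6A, KDM7A, KMT2D, SETD1B, SUZ12 and TET2, kept their direction but lost the call under at least 1, and the cause was not tested. Over these alternatives the enzymes that rose numbered 23 to 28 and those that fell 9 to 14. For the partner genes, run only with RLE scaling, DESeq2, the block and each replicate left out, the numbers were 39 to 44 and 11 to 15. A minimum fold of 1.2 left 14 and 3 enzymes, by its own construction. With a replicate block, 26 enzymes rose and 12 fell, and 42 and 14 partner genes did. The block removed the call of HDAC7 (log2 fold change 0.171, adjusted p = 0.0519) and changed no other call of an enzyme. Other scalings moved the median of all genes by -0.024 to 0.005 on the log2 scale.

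The enzymes whose direction turned were not called. KMT2B, at 0.015, was at -0.009 under upper quartile scaling. With a replicate left out in turn, log2 fold changes lay between -0.096 and 0.106 for KMT2B, -0.165 and 0.055 for SETD1A, -0.033 and 0.075 for EHMT1, -0.086 and 0.021 for KDM2A, -0.023 and 0.050 for KDM4A, -0.195 and 0.121 for KDM6B, and -0.014 and 0.148 for SIRT2. Without GFP replicate 1, KMT2A (-0.222, adjusted p = 0.0159) and KDM4B (-0.151, 0.0348) were called lower and SIRT2 (0.148, 0.0447) higher. Without GFP replicate 2, SETD2 (0.226, 0.0116) and KDM4C (0.309, 0.0471) were called higher. HDAC10, with at most 16 counts in a library, had the largest SE of the enzymes tested (0.40).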
